A study of Mus musculus with 8 samples.

Results

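The genes of fatty acid and triglyceride synthesis were compared in livers with and without Hmgb1, the gene of a plentiful chromatin protein that bends DNA. The set holds 39 listed genes: targets of the transcription factors SREBP-1 and ChREBP, and enzymes of fatty acid synthesis, elongation, desaturation and glycerolipid assembly. Each was read on a probe set that the array annotation gives to that symbol alone, and where a gene had several the brightest over the 8 arrays was taken. Of the 39, 37 were measured, among 19938 genes in all. Acsl3 lay only on a probe set with several symbols and Acsl1 had no probe set named here. RNA came from whole liver of male littermates 8 weeks old on a C57Bl/6 background (backcrossed 5 times), with free access to chow, and was hybridised to 1 array per sample. In the Hmgb1 deleted group (4 arrays) floxed Hmgb1 had been removed by Albumin-Cre, whose promoter works in hepatocytes, so other liver cells should keep the gene. The floxed control group (4 arrays) carried the floxed alleles, and its titles name no Cre, so an effect of Cre cannot be told apart from that of losing Hmgb1. Other label fields name stellate cells and Balb/c. Whether the arrays stand for different animals is not stated, and p-values therefore measure only the variation among these arrays, which may be technical.

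In liver, acetyl groups leave the mitochondria as citrate, are carboxylated to malonyl-CoA and are joined into palmitate, which is then elongated, desaturated and esterified to glycerol as triglyceride. SREBP-1c, made from Srebf1, raises the genes of this route after insulin and liver X receptor signals, and ChREBP, made from Mlxipl, raises many of the same genes when glucose is plentiful. The route is known to be high in the fed state and to vary with the time of day.

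Values are log2 intensities, on which a difference of 1 is a doubling, and they are given in the order of arrays 1 to 4. Levels of different genes are not compared, since probe sets differ in brightness. Hmgb1 itself had 4.91, 4.20, 4.53 and 4.74 on the deleted arrays, against 5.35, 5.42, 5.45 and 5.78 on the controls. It fell by 0.91 (SE 0.14, limma adjusted p = 0.0216) on a dim probe set, and 33 of 34 probe sets that it shares with copies elsewhere were also called lower when all probe sets were tested. Albumin, the marker of hepatocytes, read 13.26 to 14.03 on the deleted and 13.95 to 14.01 on the control arrays. Of the 8 arrays, control 1 stood apart, with a weight of 0.254 in a fit that weighs arrays by their spread, against 0.592 to 2.58 for the others.

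Across the pathway, 1 gene rose and 2 fell. Srebf1 rose, while Elovl2, an elongase of long polyunsaturated fatty acids, and Lpin1, a phosphatidate phosphatase that makes diacylglycerol, fell. These 3 are 8.11% of the 37 measured genes, beside 0.692% of all genes tested that passed an adjusted p of 0.05 in the same fit (0.296% as higher and 0.396% as lower). The groups did not overlap for 9 of the 37 (24.3%), beside 5.57% of all genes. Of these 6 were higher in the deleted livers, beside 3.28% of all genes, and 3 were lower, beside 2.30%. An unadjusted p under 0.05 was reached by 12 of the 37 (32.4%), beside 9.46%. These backgrounds include dim genes, while 35 of the 37 had a mean of at least 6. In a fit of such genes alone 1.29% passed. The members were also chosen with earlier results of these data known. The share of calls that were higher depended on scaling: 59 higher and 79 lower genes here became 153 and 111 after quantile normalization was applied again, and 33 and 28 with each array centred on its median. The median log2 fold change of the 37 was 0.038, against 0.0000 over all genes tested, and 22 were higher, 14 lower and 1 equal. An absolute fold change of at least 0.5 on the log2 scale was seen for 6 of the 37, beside 0.963% of all genes. Both signs occurred at most steps of the pathway.

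**Figure D1:**
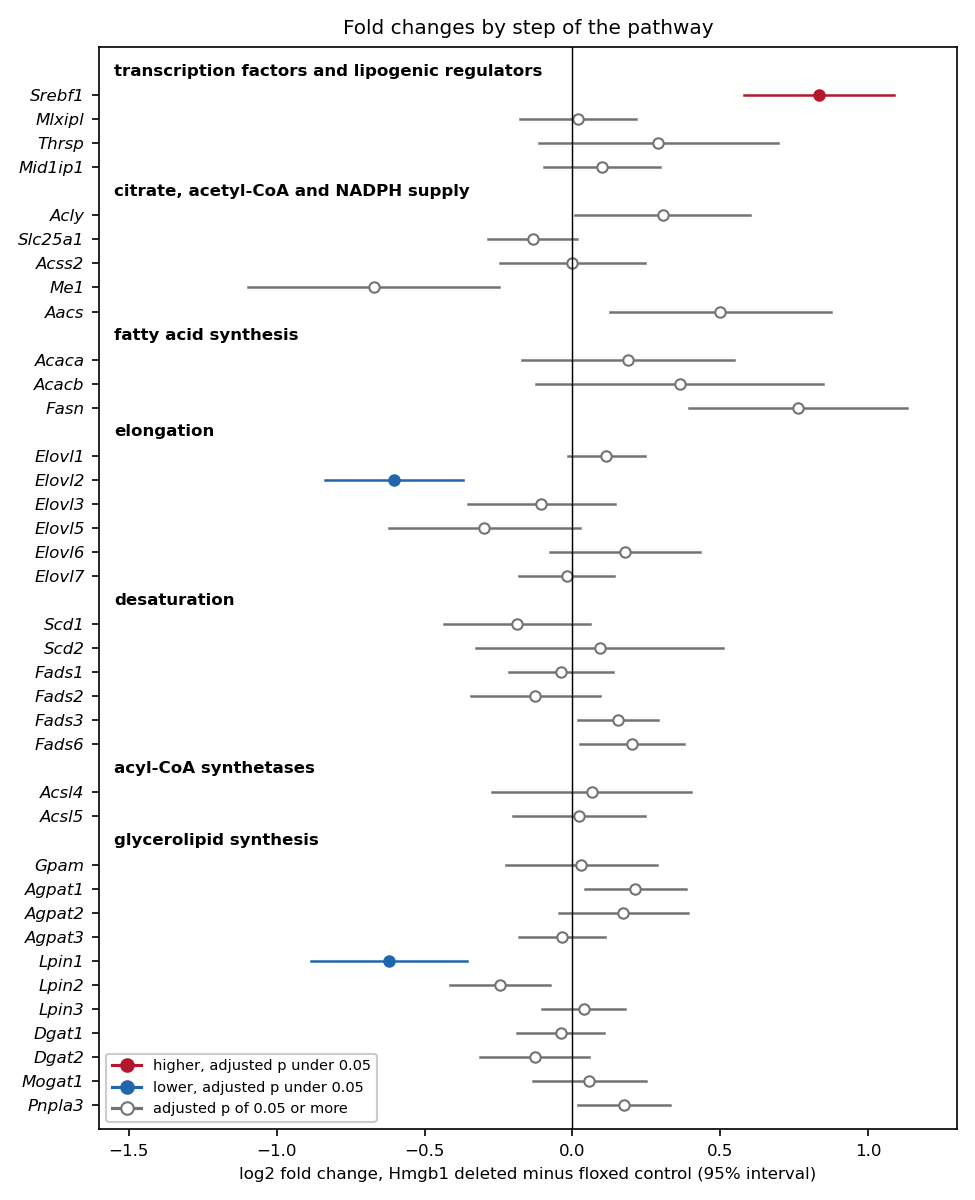
Log2 fold changes (horizontal axis, Hmgb1 deleted minus floxed control) with 95% intervals of the moderated fit for the 37 measured genes, ordered by step. Filled points passed an adjusted p of 0.05: Srebf1 lies to the right of 0, and Elovl2 and Lpin1 to the left.

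The transcription factors and their partners came first. Srebf1 had 9.23, 9.84, 9.76 and 9.57 in the deleted livers, against 8.73, 8.83, 8.76 and 8.75 in the controls. The groups did not overlap, and the controls lay close together while deleted 1 was the lowest of its group. Srebf1 averaged 9.60 ± 0.27 in the deleted and 8.77 ± 0.043 in the control livers (SD, n = 4 each), a log2 fold change of 0.83 (95% interval 0.58 to 1.09, 1.78-fold higher, limma adjusted p = 0.0121). The call was lost without deleted 4 (adjusted p = 0.0509), and kept when any other single array was left out. The probe set does not separate the transcripts of Srebf1.

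Mlxipl, the ChREBP gene, had 10.01, 10.31, 10.43 and 10.32 in deleted livers, against 10.16, 10.32, 10.22 and 10.30 in controls. These values overlap, with a log2 fold change of 0.018 (95% interval −0.18 to 0.21) whose sign turned without deleted 3 or without control 1. Thrsp, which encodes Spot 14, a small protein that promotes lipogenesis, had 10.67, 10.71, 11.47 and 11.02 in deleted livers, against 10.26, 10.75, 10.94 and 10.76 in controls. Deleted 3 was its highest array and control 1 its lowest, and the log2 fold change of 0.29 (SE 0.18) did not pass. Mid1ip1, which encodes a partner of acetyl-CoA carboxylase related to Spot 14, had 0.10 on 1 probe set and −0.025 on a second, dimmer one.

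Carbon and reducing power for the route come from a handful of enzymes. Acly, which splits cytosolic citrate to acetyl-CoA, had 10.28, 10.61, 10.95 and 10.49 in deleted livers, against 10.03, 10.35, 10.45 and 10.28 in controls. The groups overlap, and the log2 fold change was 0.31 (SE 0.13, adjusted p = 0.508). Aacs, which activates acetoacetate in the cytosol for lipid synthesis, had 8.47, 8.96, 9.10 and 8.80 in deleted livers, against 7.84, 8.41, 8.59 and 8.49 in controls. Only deleted 1 fell among the controls, and the log2 fold change of 0.50 (SE 0.17, adjusted p = 0.305) did not pass. Me1, the cytosolic malic enzyme that supplies NADPH, had 9.35, 9.82, 10.24 and 9.80 in deleted livers, against 9.97, 10.70, 10.62 and 10.61 in controls. Its sign was opposite to that of Fasn: control 1 lay below deleted 3, the other 3 controls lay above every deleted array, and the log2 fold change was −0.67 (SE 0.19, adjusted p = 0.196). Without control 1 the value for Me1 was −0.84 (adjusted p = 0.0283), and its second probe set had −0.65. For Slc25a1, the mitochondrial citrate carrier, the difference was −0.14 (SE 0.068), while Acss2, which activates acetate, had equal means.

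Palmitate itself is made by acetyl-CoA carboxylase and fatty acid synthase. Fasn, the synthase, had 10.87, 11.36, 11.78 and 11.27 in deleted livers, against 10.28, 10.54, 10.76 and 10.65 in controls. All 4 deleted values lay above all 4 controls, and deleted 3 was again the highest and control 1 the lowest. Fasn averaged 11.32 ± 0.37 in deleted and 10.56 ± 0.21 in control livers (SD, n = 4 each), a log2 fold change of 0.76 (95% interval 0.39 to 1.13, 1.70-fold higher) that did not pass over all genes (limma adjusted p = 0.0827). Without deleted 1 it passed (0.91, adjusted p = 0.0296). Acaca, the carboxylase of the cytosol, had 8.84, 9.06, 9.52 and 9.25 in deleted livers, against 8.55, 9.07, 9.21 and 9.09 in controls. Its groups overlap (log2 fold change 0.19, SE 0.16), and its second probe set had −0.15. Acacb, the carboxylase at the mitochondrial surface whose malonyl-CoA restrains fatty acid oxidation, had 0.36 (SE 0.22), with control 1 at 8.57 against 9.35 to 9.52 on the other controls.

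**Figure D2:**
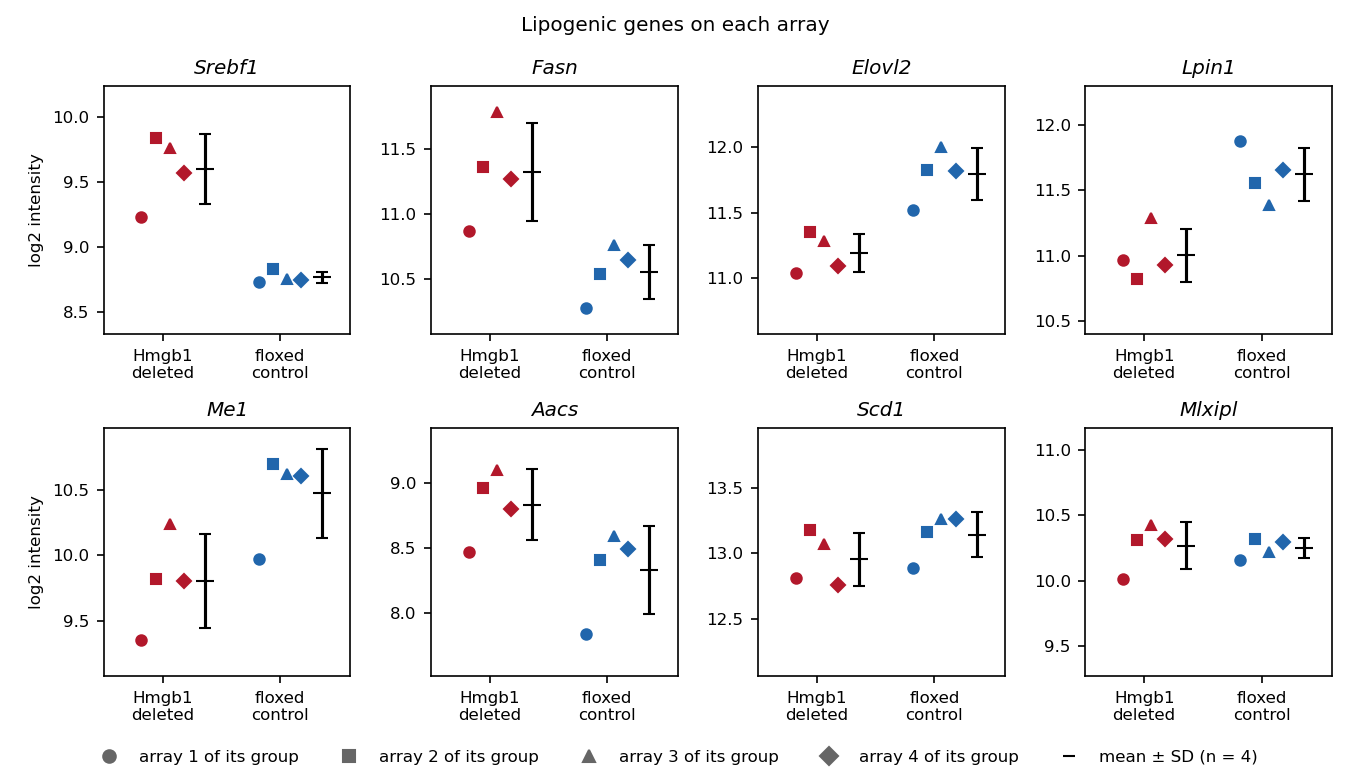
Log2 intensity (vertical axis, the same span in each panel) of 8 genes on every array, deleted livers left of controls, with the mean ± SD (n = 4) beside each group. The groups do not overlap for Srebf1, Fasn, Elovl2 and Lpin1. They overlap for Me1, Aacs, Scd1 and Mlxipl.

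The promoters of the 3 genes that passed and of Fasn are shown because Srebf1 and Fasn are both known targets of liver X receptors and of SREBP-1c itself. Each line is the 250 bases before an annotated start, 5′ to 3′ on the gene's minus strand, from RefSeq on GRCm38.p6. They are chr11:60210472-60210721 for Srebf1, chr11:120824548-120824797 for Fasn, chr13:41220404-41220653 for Elovl2 and chr12:16610967-16611216 for Lpin1. For Srebf1 the most downstream of its 3 starts in the table is shown, which is that of SREBP-1c, and for Elovl2 the more upstream of 2. Capitals mark letters found by a search of both strands.
Srebf1: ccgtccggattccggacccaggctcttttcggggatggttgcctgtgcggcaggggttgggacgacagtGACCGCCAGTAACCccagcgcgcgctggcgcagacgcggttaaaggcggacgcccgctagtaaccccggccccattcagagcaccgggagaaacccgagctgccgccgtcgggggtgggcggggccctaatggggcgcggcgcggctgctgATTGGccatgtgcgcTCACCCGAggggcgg
Fasn: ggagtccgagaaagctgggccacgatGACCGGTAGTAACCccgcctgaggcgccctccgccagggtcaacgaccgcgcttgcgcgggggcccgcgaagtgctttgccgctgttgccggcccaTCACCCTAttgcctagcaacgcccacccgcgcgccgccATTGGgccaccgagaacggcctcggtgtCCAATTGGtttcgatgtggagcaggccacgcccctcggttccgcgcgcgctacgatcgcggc
Elovl2: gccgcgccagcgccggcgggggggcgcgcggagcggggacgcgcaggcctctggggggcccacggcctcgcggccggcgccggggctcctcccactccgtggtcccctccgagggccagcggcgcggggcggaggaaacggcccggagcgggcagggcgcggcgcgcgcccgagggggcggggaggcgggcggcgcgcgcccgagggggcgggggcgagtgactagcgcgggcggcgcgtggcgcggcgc
Lpin1: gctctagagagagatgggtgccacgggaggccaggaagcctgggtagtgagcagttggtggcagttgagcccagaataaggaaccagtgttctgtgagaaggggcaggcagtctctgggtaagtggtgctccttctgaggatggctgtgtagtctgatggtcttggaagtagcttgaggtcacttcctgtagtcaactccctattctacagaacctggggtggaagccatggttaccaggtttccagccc
Searched motifs were GGTTAC and GGTC with any 4 bases between them (a liver X receptor element in the form known from the mouse Srebf1 promoter), TCACNCNA (a loose form of the sterol regulatory element that SREBPs bind), CCAAT (the box of the factor NF-Y) and CACGTG (the E-box that MLX partners can bind). The liver X receptor element was found at bases 181 to 168 before the Srebf1 start and at bases 224 to 211 before the Fasn start, and in 17 of 32851 windows of the same length in the table (0.0517%). Among the 45 windows of listed genes it was found in 3, those of Srebf1, Fasn and Acsl3, an acyl-CoA synthetase not measured here. Since its letters were taken from the Srebf1 element, its presence there is no finding. The loose sterol element stood at bases 15 to 8 before the Srebf1 start and 128 to 121 before the Fasn start, against 9.10% of all windows, and in 10 of the 45 windows of listed genes. CCAAT was found once for Srebf1 and 3 times for Fasn (33.8% of all windows), 2 of the 3 sharing 2 letters, and CACGTG in neither (6.02%). No letters of the 4 motifs were found in the Elovl2 and Lpin1 windows, which says nothing of sites elsewhere. A match describes the letters and is not a site shown to be bound. Windows were held for 33 of the 39 listed genes.

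Of the 6 elongases, 1 fell and 5 did not pass. Elovl2, which extends long polyunsaturated fatty acids, had 11.04, 11.35, 11.28 and 11.09 in deleted livers, against 11.52, 11.83, 12.00 and 11.82 in controls. All 4 deleted values lay below the lowest control, which was control 1. Elovl2 averaged 11.19 ± 0.15 in deleted and 11.79 ± 0.20 in control livers (SD, n = 4 each) and fell by 0.60 on the log2 scale (95% interval −0.84 to −0.37, 1.52-fold lower, limma adjusted p = 0.0327). That call was kept without control 1 (adjusted p = 0.00439) and lost without any other single array: deleted 1 (adjusted p = 0.0771), deleted 2 (0.0526), deleted 3 (0.0772), deleted 4 (0.125), control 2 (0.103), control 3 (0.0910) or control 4 (0.133). It was also lost with centred arrays (0.107) and with all probe sets tested (0.0919). Elovl5, which acts on shorter polyunsaturated acids, was lower by a mean of −0.30 on the log2 scale (SE 0.15, adjusted p = 0.603) with overlapping groups. Elovl6, which extends palmitate to stearate, had 9.92, 10.00, 10.21 and 9.82 in deleted livers, against 9.48, 9.89, 9.93 and 9.94 in controls. Its log2 fold change was 0.18 (SE 0.12), with control 1 far below the rest. Elovl1, an elongase of very long acids, had 10.00, 10.02, 9.97 and 10.07 in deleted livers, against 9.82, 9.89, 9.93 and 9.96 in controls. Those groups did not overlap but differed by only 0.12 (SE 0.058, adjusted p = 0.629). Elovl3, an elongase of saturated and monounsaturated acids, had −0.11, and Elovl7, on a dim probe set with 33.5% of genes dimmer, −0.020.

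Desaturases showed small differences, none of the 6 passing, with log2 fold changes from −0.19 to 0.20. Scd1, the main liver enzyme that makes oleate and palmitoleate, had 12.81, 13.18, 13.07 and 12.76 in deleted livers, against 12.89, 13.16, 13.26 and 13.26 in controls. Its groups overlap, and the log2 fold change was −0.19 (95% interval −0.44 to 0.060), below 0 in each of the 19 alternatives. It came nearest to 0 after a repeated quantile normalization, at −0.086. Its lowest value was on deleted 4, where the brightest probe set read 13.58, against 14.23 to 14.46 on the other arrays. Deleted 1 was close to it at 12.81, with a brightest probe set of 14.37. With 1 array left out at a time the log2 fold change of Scd1 ran from −0.27 to −0.12. The part of array brightness in the Scd1 values was not tested. Scd2, a related desaturase, had 6.07, 6.61, 6.22 and 6.36 in deleted livers, against 5.61, 6.28, 6.61 and 6.39 in controls. Its difference of 0.093 (SE 0.19) became −0.11 without control 1. Fads1 and Fads2, the delta-desaturases of polyunsaturated acids, had −0.040 (SE 0.080) and −0.13 (SE 0.098). Fads6, a family member of less known function, had 9.17, 9.13, 9.26 and 9.12 in deleted livers, against 8.77, 9.09, 9.08 and 8.94 in controls. Its groups did not overlap, with a log2 fold change of 0.20 (SE 0.080, adjusted p = 0.430), and Fads3, of the same family, had 0.16 with overlapping groups. The acyl-CoA synthetases Acsl4, which prefers arachidonate, and Acsl5 had 0.065 (SE 0.15) and 0.023 (SE 0.10), and both turned below 0 without control 1 (−0.12 and −0.078).

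Glycerolipid synthesis begins with glycerol phosphate and ends in triglyceride. Gpam, the mitochondrial acyltransferase of the first step, had 9.99, 10.43, 10.55 and 10.29 in deleted livers, against 10.16, 10.19, 10.45 and 10.34 in controls. These overlap throughout (0.030, 95% interval −0.22 to 0.28, below 0 without deleted 2, deleted 3, control 1 or control 2). Agpat1, an acyltransferase of the second step, had 7.93, 7.77, 7.64 and 7.64 in deleted livers, against 7.57, 7.43, 7.55 and 7.58 in controls. All deleted values lay above the controls, with a log2 fold change of 0.21 (SE 0.077, adjusted p = 0.352). Agpat2 and Agpat3, of the same family, had 0.17 (SE 0.098) and −0.035 (SE 0.066).

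Lipins turn phosphatidate into diacylglycerol, and Lpin1 protein also acts in the nucleus as a coactivator with PPARα and PGC-1α. Lpin1 had 10.97, 10.82, 11.29 and 10.93 in deleted livers, against 11.88, 11.56, 11.39 and 11.66 in controls. The groups did not overlap, though deleted 3 lay close below control 3. Lpin1 averaged 11.00 ± 0.20 in deleted and 11.62 ± 0.21 in control livers (SD, n = 4 each) and fell by 0.62 (95% interval −0.88 to −0.36, 1.54-fold lower, limma adjusted p = 0.0469). Its call lay close to the threshold and was lost without deleted 1 (adjusted p = 0.0980), deleted 2 (0.131), deleted 4 (0.173), control 2 (0.114) or control 4 (0.179), with both arrays numbered 1 left out (0.0620), with all probe sets tested (0.123), after a repeated quantile normalization (0.0819) and with centred arrays (0.0525). Lpin2, another lipin of liver, had 10.18, 10.41, 10.45 and 10.30 in deleted livers, against 10.54, 10.47, 10.66 and 10.65 in controls. Its groups also did not overlap, and the log2 fold change was −0.25 (SE 0.077, adjusted p = 0.248). Lpin3 had 6.23, 6.29, 6.44 and 6.32 in deleted livers, against 6.25, 6.26, 6.28 and 6.34 in controls, near the middle of all genes in brightness. Its log2 fold change was 0.038 (SE 0.063).

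The last acylation is made by Dgat1 and Dgat2. Dgat1 had 8.60, 8.75, 8.64 and 8.80 in deleted livers, against 8.64, 8.76, 8.75 and 8.80 in controls. Dgat2, which is known to take up newly made fatty acids, had 11.76, 11.90, 12.03 and 11.71 in deleted livers, against 11.96, 11.86, 12.11 and 11.98 in controls. Both overlap between groups. The log2 fold change was −0.040 for Dgat1 (95% interval −0.19 to 0.11) and −0.13 for Dgat2 (95% interval −0.31 to 0.057), and a 1.5-fold difference lies outside either interval. Mogat1, which acylates monoacylglycerol, was dim in both groups, with a log2 fold change of 0.058. Pnpla3, a lipid droplet protein and known SREBP-1c target, had 6.65, 6.76, 6.85 and 6.67 in deleted livers, against 6.63, 6.43, 6.55 and 6.62 in controls. Its groups did not overlap, though deleted 1 lay just above control 1, and the log2 fold change was 0.18 (SE 0.071, adjusted p = 0.438). For 27 of the 37 genes the 95% interval lay within 1.5-fold in both directions, a smaller share than over all genes tested (19371 of 19938).

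Within each group the arrays held a common order for many of these genes. The shares of all genes given beside it include dim genes, while 35 of the 37 had a mean of at least 6. Control 1 was the lowest control for 28 of the 37, against 35.7% of all genes, and the highest for 4 (10.8%), against 41.0% of all genes. Control 3 was the highest control for 17 of the 37 (45.9%), against 19.2% of all genes. Among the deleted livers, deleted 1 was lowest for 24 and deleted 3 highest for 24 of the 37, against 27.1% and 27.9% of all genes. Both held together for 18 of the 37 (48.6%), among them Fasn, Acly, Acaca, Acacb, Thrsp, Aacs and Me1, against 9.76% of all genes. Srebf1 was not among them, with deleted 2 as its highest array. For Fasn, Acly, Acaca, Acacb, Thrsp and Aacs, the array numbered 1 was lowest and that numbered 3 highest in both groups. The arrays that define this order were picked after the values of these genes were seen, so its share among them may be raised by that choice. The order is a description of 8 arrays and has no test.

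**Figure D3:**
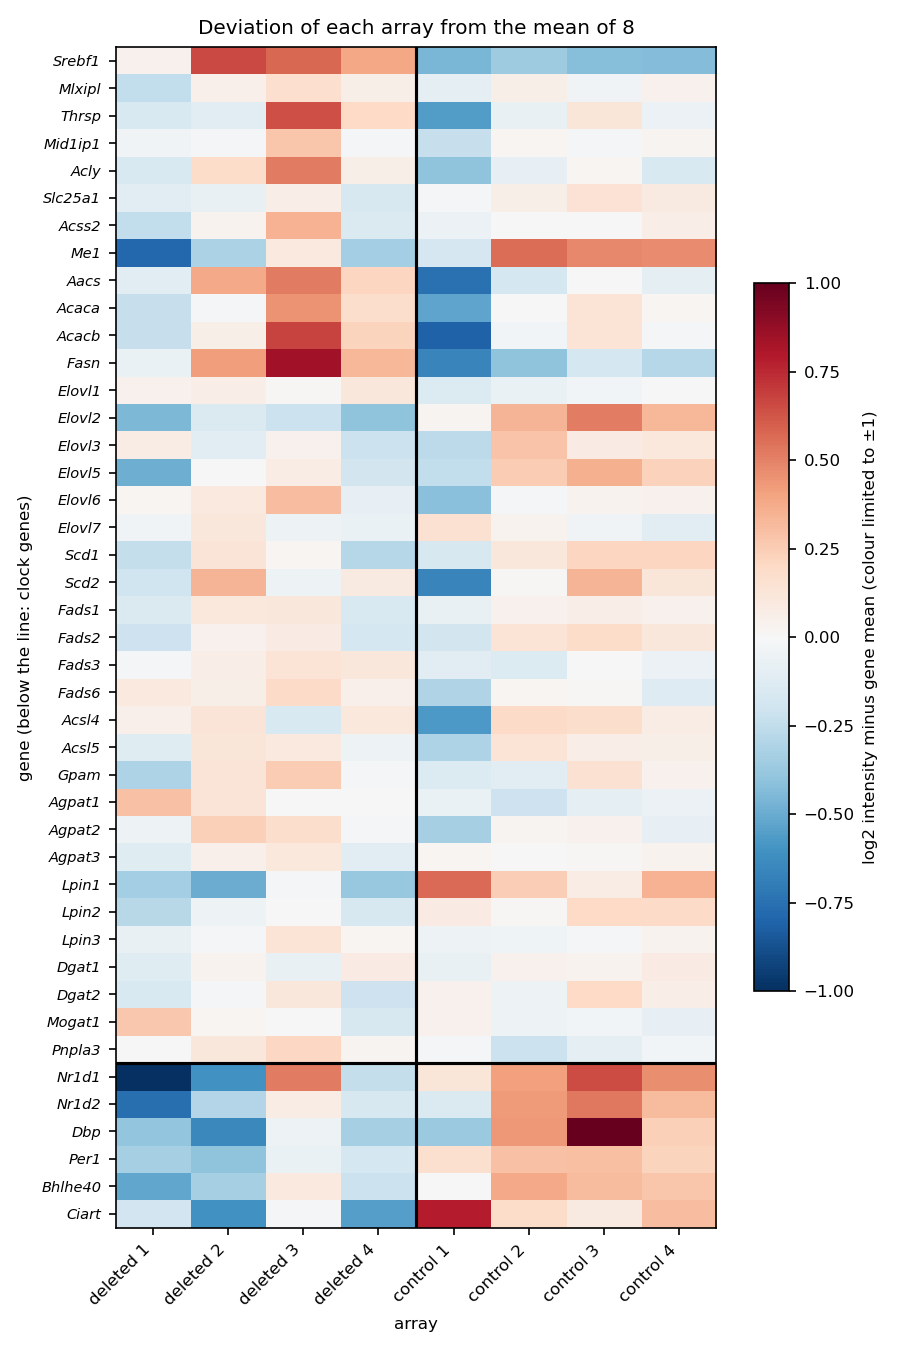
Deviation of each array (columns, deleted livers on the left) from the gene's mean over the 8 arrays, in log2 units, for the 37 genes and, below the line, 6 clock genes. Deleted 3 is red for Fasn, Acacb, Thrsp and Acly and control 1 is blue for the same genes, while Srebf1 separates the groups and Lpin1 and Elovl2 separate them the other way.

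Clock genes were read on the same arrays. Of 17 measured clock genes 12 were lower and 5 higher, and 1 passed (5.88%, beside 0.692% of all genes). It was Per1, of the negative limb of the clock, which fell by 0.49 (SE 0.079, limma adjusted p = 0.0226). A limma unadjusted p under 0.05 was reached by 7 (41.2%), beside 9.46% of all genes. An absolute log2 fold change of at least 0.5 was seen for 4, beside 0.963% of all genes. Nr1d1, the repressor REV-ERBα, had 9.30, 10.02, 11.15 and 10.39 in deleted livers, against 10.75, 11.04, 11.28 and 11.09 in controls. It was named after its values were seen, and its log2 fold change was −0.83 (SE 0.30, adjusted p = 0.359). As for Fasn and Me1, deleted 1 was its lowest and deleted 3 its highest deleted array, and control 1 its lowest control. That order held for Nr1d1, Nr1d2, Tef, Bhlhe40 and Bhlhe41, which are 5 of the 17 clock genes (29.4%), and not for Per1 or Ciart. It held for 14 of the 37 lipogenic genes (37.8%) and for 5.46% of all genes. Since the order was picked after values were seen, its shares in these lists may be raised by that choice. Ciart (−0.68, with groups that did not overlap), Bhlhe40 (−0.49) and Nr1d2 (−0.57) did not pass. The sources used here give no hour of sampling, and the part of the clock in the lipogenic values was not tested.

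Genes known to answer to fasting were set beside them, since Lpin1 is one such gene in mouse liver. Of 12 measured, 5 were higher and 7 lower, and 0 passed, beside 0.692% of all genes. A limma unadjusted p under 0.05 was reached by 4 (33.3%), beside 9.46% of all genes. Ppargc1a, the PGC-1α gene, had 7.37, 8.14, 7.70 and 7.79 in deleted livers, against 9.14, 8.21, 8.27 and 8.65 in controls. It did not overlap between groups, as Lpin1 did not, with a log2 fold change of −0.82 (SE 0.21, adjusted p = 0.134). Pck1, the gluconeogenic carboxykinase, had −0.22, Cpt1a, the carnitine transferase of fatty acid oxidation, −0.18, and Pdk4, a kinase that turns off pyruvate dehydrogenase, 0.42. Their part in the fall of Lpin1 was not tested.

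Upstream of Srebf1, 0 of 17 measured regulators of SREBP and liver X receptor signalling passed, beside 0.692% of all genes. At a limma unadjusted p under 0.05 there were 4 (23.5%), beside 9.46% of all genes. Of the 17, 12 were higher and 5 lower, with a median log2 fold change of 0.043. Insig1, which holds SREBPs in the endoplasmic reticulum and is itself an SREBP target, had 11.73, 11.74, 11.87 and 11.68 in deleted livers, against 11.42, 11.37, 11.67 and 11.53 in controls. Its groups did not overlap, though deleted 4 lay just above control 3 (0.26, SE 0.078, adjusted p = 0.226). Mlx, the partner of ChREBP, had 0.27 (SE 0.068, adjusted p = 0.136), Nr1h3, the liver X receptor of liver, 0.20 (SE 0.068), and Ppargc1b, a coactivator of SREBP-1c, −0.35 (SE 0.072, adjusted p = 0.0618). None of the 26 other lipogenic and glycerolipid genes passed (0 of 26, median −0.041). At a limma unadjusted p under 0.05 there were 5 of the 26 (19.2%). Those with the smallest p were Tm6sf2, needed for lipid-rich lipoprotein export (−0.49, SE 0.18), the fatty acid translocase Cd36 (0.46, SE 0.18), the mitochondrial ketoacyl synthase Oxsm (0.19) and Agpat5 (−0.22).

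Downstream, lipid droplet genes also held 0 of 17 past the threshold, beside 0.692% of all genes, with 8 higher and 9 lower. At a limma unadjusted p under 0.05 there were 2 (11.8%), beside 9.46% of all genes. Pnpla2, the triglyceride lipase ATGL, had −0.26 (SE 0.073), its activator Abhd5 0.31 (SE 0.13), the coat protein Plin5 −0.22 and Hilpda 0.10. Of 18 measured genes of cholesterol synthesis, which answer mainly to SREBP-2, 0 passed, with 6 higher, 12 lower and a median of −0.059. Among them 4 (22.2%) had a limma unadjusted p under 0.05. Idi1 (−0.39, adjusted p = 0.0742), Msmo1 (−0.31) and Ebp (−0.16) were lower and Mvd (0.36) higher.

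The mixture of cells was read from markers. In whole liver, fewer cells of a type and less RNA per cell cannot be told apart. All 8 measured sinusoidal endothelial markers had lower means in the deleted livers, with list means of 9.04 to 9.14 on deleted and 9.29 to 9.45 on control arrays, and Clec4g fell by 0.61 (SE 0.076, adjusted p = 0.00628). Hepatocyte markers, 8 of 9 lower with 0 past the threshold, had means of 12.74 to 13.18 on deleted and 13.14 to 13.16 on control arrays, with deleted 4 the low one. Adipocyte markers, of which 7 were measured, had means of 6.33 to 6.37 on deleted and 6.34 to 6.55 on control arrays. Of the 7, 2 were higher and 5 lower in the deleted livers, and 0 passed. Means of stellate, Kupffer cell and cholangiocyte markers overlapped or met between groups, while the 3 measured erythroid markers were lower (8.24 to 8.37 on deleted, 8.53 to 8.76 on control arrays). The part of endothelial and erythroid content in these results was not tested.

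How many of the 37 genes passed depended on the settings, as did the share of all genes. With Srebf1, Elovl2 and Lpin1, 3 passed among genes with a mean of at least 6 (1.29% of genes called), with probe sets averaged (0.672%), with the most variable probe set (0.677%), with a variance trend (0.677%) and with a robust prior (0.662%). A repeated quantile normalization also gave 3 (1.32%), with Fasn in place of Lpin1. Srebf1 alone passed with all probe sets tested (0.295%) and with centred arrays (0.306%). Array weights gave 5 (2.64%), both arrays numbered 1 left out 5 (1.84%) and a block for the array number 6 (1.63%). Leaving out deleted 1, 2, 3 or 4 gave 2, 1, 2 and 0 (0.492%, 0.336%, 0.266% and 0.186%). Leaving out control 1, 2, 3 or 4 gave 4, 1, 2 and 1 (1.61%, 0.411%, 0.356% and 0.211%). Me1 was the added gene without control 1.

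**Figure D4:**
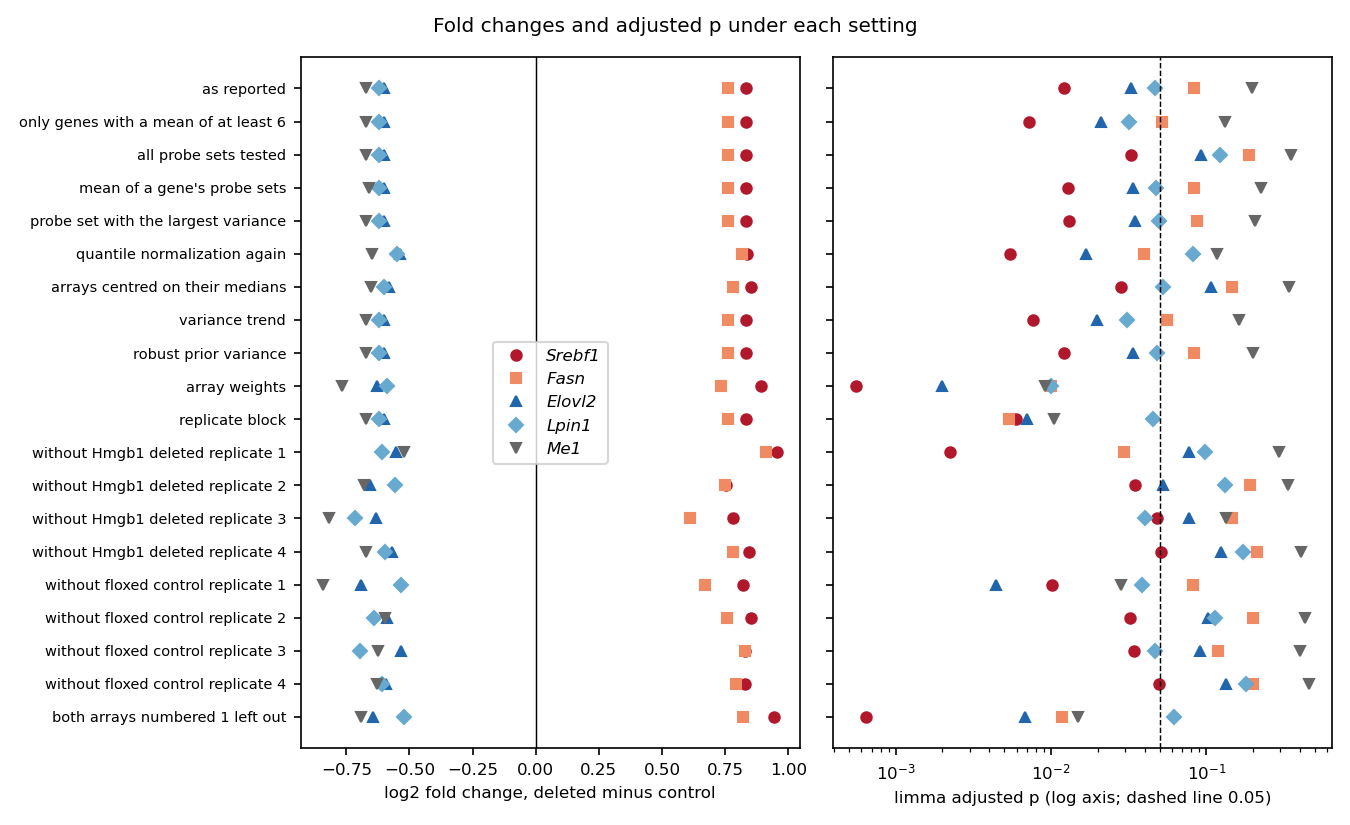
Log2 fold change (left, deleted minus control) and limma adjusted p (right, log axis) of 5 genes under each setting, one row a setting. Srebf1 stays between 0.75 and 0.96 and Fasn between 0.61 and 0.91, and Elovl2, Lpin1 and Me1 stay below 0, while adjusted p moves across the dashed line at 0.05 for each of the 5.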

How the data were processed

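RNA of 8 liver samples was measured on Affymetrix arrays, 1 array per sample. An input of 150 ng RNA was amplified and biotin-labelled, per the labels' protocols. The authors deposited log2 intensities, rounded to 2 decimals and made with RMA, per the submitters' processing notes, a method that removes background, equalizes the arrays by quantiles and combines the probes of a set. The sources used here give neither its version nor a genome build.

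Of 35556 probe sets, 21789 had exactly 1 symbol, 1621 several and 12146 none in GEO's annotation of the array. For each of 19938 genes the single-symbol probe set with the highest mean was used, with no filter on dim ones. The groups were compared by 2-sided moderated tests (limma 3.58.1, R 4.3.3, groups as the only term), with Benjamini-Hochberg adjustment across the 19938 genes and a threshold of 0.05. Python 3.11.15 and matplotlib 3.10.9 made tables and figures. The members, the gene lists, the test and the rule for naming genes were chosen with earlier results of these data known. Values on every array are given for genes that passed, for genes whose groups did not overlap, for the 6 largest fold changes and for 17 preset genes. Other lists name genes that passed and, outside cell type markers, up to 4 with the smallest p. Promoter motifs, the order of arrays and both arrays numbered 1 left out were chosen after seeing the data. On simulated arrays of 19938 genes the scripts recovered 91% of 67 genes changed 1.5-fold and 100% of those changed 2-fold or more, with 6 unchanged genes among 200 called. The simulated noise was independent between genes and arrays, with no array of lower weight and no order shared by many genes. These shares may therefore overstate recovery in the real arrays, where Fasn at 1.70-fold was not called. Alternatives covered 19 settings of filter, probe set, normalization, variance model, weights, pairing and left-out arrays. Precision is limited by the number of arrays.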

Additional observations from a re-analysis of the deposited data

Results flagged for a closer look

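Each gene's 4 values in a group were searched for 1 array standing apart, measured by its distance to the next value as a share of the whole spread. The search covered 132 groups and gave 8 such arrays, and about 1 in 20 groups (6.6) would do so by chance. Control 1 was the array in 5 cases, and the cause was not tested.

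On control 1 Me1 read 9.97 against 10.61 to 10.70 on the other controls, Elovl6 9.48 against 9.89 to 9.94, and Acsl4 8.51 against 9.16 to 9.27. Mid1ip1 read 7.97 there against 8.19 to 8.23, and Fads1 12.16 against 12.28 to 12.30. Among the deleted livers Mid1ip1 read 8.48 on deleted 3 against 8.17 to 8.18, and Elovl7 5.89 on deleted 2 against 5.71 to 5.74. Albumin read 13.26 on deleted 4 against 13.93 to 14.03 on the other deleted arrays.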

How the results depend on the processing

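Of the 37 genes, 26 kept the sign of their fold change in each of the 19 alternatives, Srebf1, Fasn, Elovl2, Lpin1 and Me1 among them, and 10 with small fold changes did not. Acss2 had equal means and ran from −0.12 to 0.081. Genes past the threshold numbered 138, of which 3 were members, and 0 members passed in every alternative. With all probe sets tested 1 member passed (Srebf1), as with arrays centred on their medians, where 61 genes passed. A repeated quantile normalization gave 264 genes, array weights 526 genes and 5 members, and both arrays numbered 1 left out 366 genes and 5 members. Leaving out 1 array at a time gave 37 to 321 genes, 0 to 4 members and a median log2 fold change of the members from −0.012 to 0.081. Without deleted 4, 0 members passed (limma). Without control 1 the counts were higher, at 321 genes and 4 members. The cause was not tested. The replicate number as a block gave 325 genes and 6 members (Srebf1, Me1, Aacs, Fasn, Elovl2 and Lpin1). The labels name nothing that same-numbered arrays share beyond the number. Their deviations from the group means correlated at 0.447, 0.065, −0.081 and 0.422 for numbers 1 to 4. Those for numbers 1 and 4 were the highest of all pairs of a deleted and a control array. Not every array correlated best with its own number. Whether same-numbered arrays have anything else in common was not tested. Signs turned for Fads1 (0.068) and Agpat3 (0.028) after repeated quantile normalization, and for Elovl7 (0.052), Scd2 (−0.011), Acsl4 (−0.066) and Acsl5 (−0.027) with array weights. With both arrays numbered 1 left out they turned for Elovl7 (0.037), Scd2 (−0.030), Acsl4 (−0.12) and Acsl5 (−0.033). Leaving out 1 array turned Mlxipl (−0.037 to 0.10 over the 8), Gpam (−0.048 to 0.14), Fads1 (−0.085 to 0.0050), Mogat1 (−0.022 to 0.12), Lpin3 (−0.0025 to 0.067), Elovl7 (−0.061 to 0.028), Scd2 (−0.11 to 0.22), Acsl4 (−0.12 to 0.14) and Acsl5 (−0.078 to 0.073). None of these passed in any alternative. The filter on dim genes left Elovl7 and Mogat1 untested.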
